A study of Saccharomyces cerevisiae with 6 samples.

Results

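The genes described here belong to the haploid cell programme of budding yeast: GPA1, STE4, STE18, STE5, FUS3, FAR1, STE12, FUS1, RME1 and HO. They were taken by name as listed haploid-specific and pheromone pathway genes, using array probe sets that name 1 gene only, and all 10 of 10 were found among 5656 genes measured. FUS3 had 3 such probe sets and the other members had 1 each. Total RNA of Saccharomyces cerevisiae cultures kept at 30 °C was measured on 6 Affymetrix arrays: 2 of a double deletion of FHL1 and IFH1, 2 of an FHL1 deletion and 2 of wild type (WT). The labels number the arrays of each genotype as first and second experiment, and the sources used here do not give strain background, mating type, growth medium or deletion markers. FHL1 encodes a forkhead-type protein at ribosomal protein gene promoters and IFH1 its coactivator there, so the comparisons ask what the loss of these regulators, together or of FHL1 alone, does to transcript levels.

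In haploid yeast, a pheromone from the opposite mating type binds a receptor and frees the G protein beta and gamma subunits from the alpha subunit. The freed pair recruits a scaffold that carries a kinase cascade, whose MAP kinase activates the transcription factor Ste12 and the cell cycle inhibitor Far1, and fusion genes such as FUS1 are then expressed. Many of these genes are repressed in diploids of mixed mating type, as are RME1, which encodes a repressor of meiosis, and HO, which encodes the endonuclease that starts mating type switching.

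Levels are given as scaled log2 signals: the deposited log2 values with each array set to a common median, so that 1 unit is a doubling. Values under a floor of 5.63, the 10th percentile of all values, were raised to it before testing. IFH1 was under the floor on both double deletion arrays (4.93 and 5.39), against 8.91 and 8.92 in the FHL1 deletion and against 8.38 and 8.63 in WT, and was at least 7.35-fold lower in the double deletion than in WT (adjusted p = 0.000434). FHL1 was under the floor on all 6 arrays and was not tested. Before the floor it had 2.64 and 2.88 in the double deletion and 3.15 and 2.60 in the FHL1 deletion. In WT it had 4.97 and 5.08, above every deletion array, but at such low levels the array gives only a weak check of the deletion. The ACT1 probe sets at the 3' end exceeded those at the 5' end by 1.02 to 1.15 on deletion arrays and by 0.93 and 0.96 in WT. The same measure overlapped for SRB4 (1.89 to 3.09 on deletion arrays, 1.52 and 2.25 in WT) and for SPT15 (1.11 to 1.23 on deletion arrays, 0.98 and 1.12 in WT). The 9 bacterial control probe sets had median differences from WT of -0.69 and -0.75, and the rRNA control median was 9.90 on the second WT array against 5.32 to 6.76 elsewhere; the part of these shifts in the results was not tested. The arrays also carried different mating type markers. The 7 MATa markers summed to 14.07 (log2) on the second double deletion array and 14.28 on the first FHL1 deletion array, where all lay above the floor, against 9.55 to 9.80 on the remaining arrays, both of WT included, where 5 did and the alpha-factor receptor gene STE2 did not. The 4 MATalpha markers summed to 9.18 and 9.09 on that pair of arrays, where MF(ALPHA)2 was under the floor, against 13.31 to 13.91 elsewhere. The first double deletion, second FHL1 deletion and first WT array shared 502 to 859 exactly equal values pairwise out of 9335, against 1 at most for any other pair. They are named array set A here and the remaining arrays set B, and no label names such sets. Both arrays with MATa markers are in set B, so among deletion arrays the set and these markers cannot be told apart.

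Of the 9 members tested, STE18 rose and HO fell in both deletion genotypes, and the other 7 did not pass the test against WT. STE18 was 2.57-fold higher in the double deletion and 3.2-fold higher in the FHL1 deletion, whereas HO was 2.84-fold lower and 3.35-fold lower. The mean differences of the remaining signalling genes from WT were less than 1 on the log2 scale in both genotypes. Larger differences are not excluded, since the 95% confidence intervals of FAR1 reached down to -1.69 and -1.39. A gene counts as risen or fallen where limma's test gave a Benjamini-Hochberg adjusted p under 0.05 over all 4242 tested genes. In the double deletion 9.78% of tested genes rose and 8.46% fell, and in the FHL1 deletion 12.9% rose and 8.42% fell, so 1 rise and 1 fall among 9 members is near the background share. Both comparisons use the same 2 WT arrays. No label says that the arrays came from separate cultures, so p-values measure only the spread between these arrays, and the number of arrays limits the precision. The arrays measure bulk RNA, so a smaller share of expressing cells and less RNA per cell cannot be told apart.

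Of the 3 subunit genes of the receptor-coupled G protein, STE18 passed the test and STE4 and GPA1 did not. STE18 (YJR086W), which encodes the gamma subunit, had scaled log2 signals of 8.83 and 8.78 in the double deletion (first and second experiment) and 8.93 and 9.32 in the FHL1 deletion, against 7.63 and 7.27 in WT. All 4 deletion arrays lay above both WT arrays, by more than the gap between arrays of 1 genotype. The double deletion exceeded WT by 1.36 (SE 0.19, adjusted p = 0.00623) and the FHL1 deletion by 1.68 (SE 0.19, adjusted p = 0.00304). These were the 50th largest of 2141 positive differences and the 22nd largest of 2216. In the double deletion the adjusted p was 0.0508, with a difference of 1.18, when the second WT array was left out.

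STE4 (YOR212W), which encodes the beta subunit that pairs with Ste18, had 10.66 and 10.51 in the double deletion and 10.60 and 10.91 in the FHL1 deletion, against 10.41 and 10.39 in WT. The deletion arrays lay above WT without overlap, but the differences of 0.19 (SE 0.15, adjusted p = 0.441) and 0.35 (SE 0.15, adjusted p = 0.145) did not pass. GPA1 (YHR005C), which encodes the alpha subunit that holds the pair inactive, had 8.44 and 8.22 in the double deletion and 8.33 and 8.55 in the FHL1 deletion, against 8.56 and 8.03 in WT. Its groups overlapped, and its differences of 0.03 and 0.15 had 95% confidence intervals of -0.46 to 0.52 and -0.34 to 0.63. The intervals of STE4 were -0.17 to 0.55 and -0.01 to 0.72, while those of STE18 were 0.92 to 1.80 and 1.23 to 2.12. These intervals are per gene and are not adjusted for the number of genes.

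**Figure D1:**
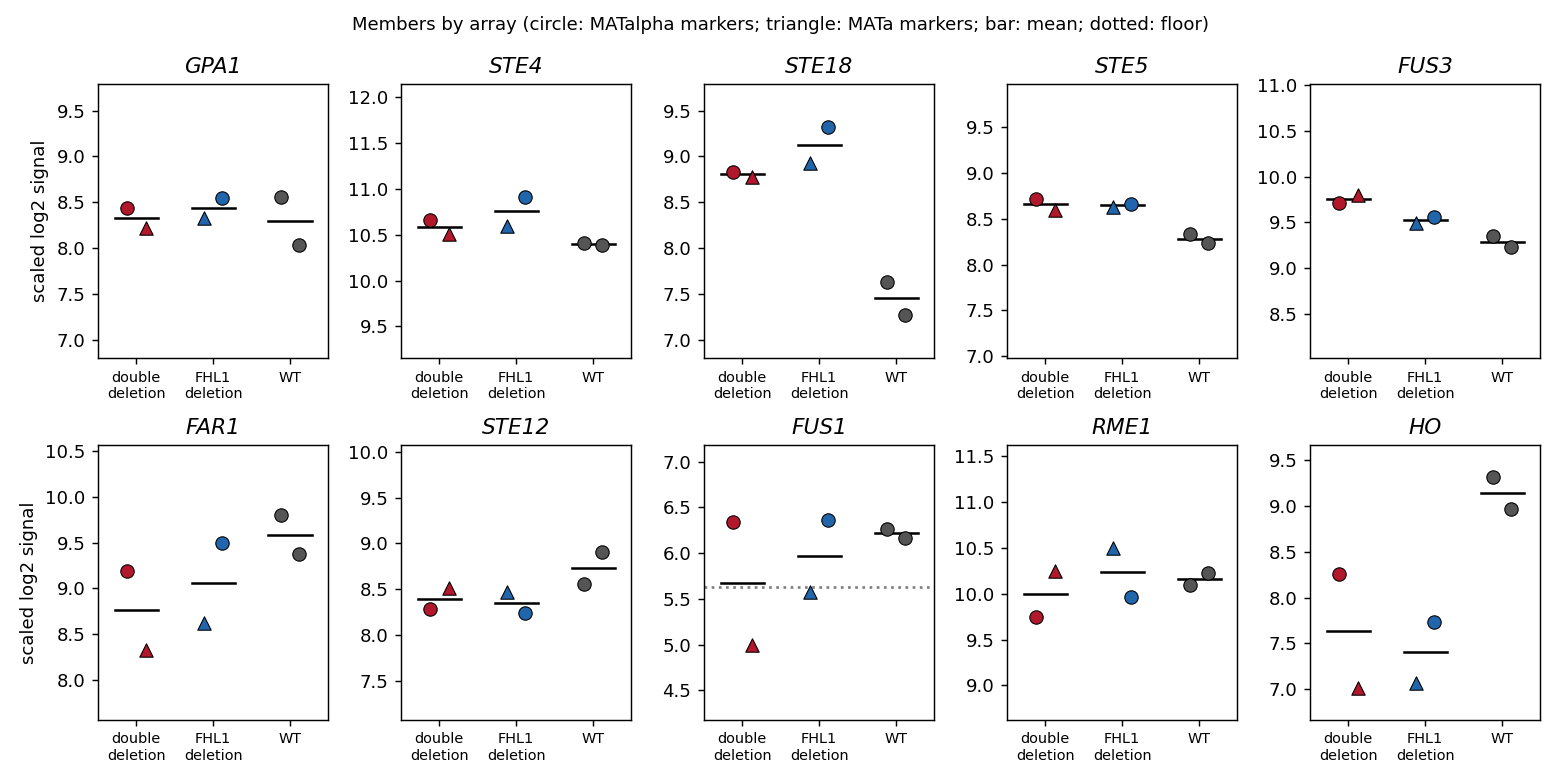
Scaled log2 signal of each of the 10 genes (y axis, spanning the same range in every panel) on each of the 6 arrays, grouped as double deletion, FHL1 deletion and WT. Circles are arrays with MATalpha markers, triangles arrays with MATa markers, bars group means, and the dotted line the floor of 5.63; STE18 is higher and HO lower on all 4 deletion arrays than on both WT arrays.

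Of the members, the scaffold gene STE5 and the MAP kinase gene FUS3 were slightly above WT without passing the test. STE5 (YDR103W), which encodes the scaffold of the cascade, had 8.72 and 8.60 in the double deletion and 8.63 and 8.66 in the FHL1 deletion, against 8.33 and 8.23 in WT, with no overlap. It differed by 0.38 (SE 0.13, adjusted p = 0.0898) and by 0.37 (SE 0.13, adjusted p = 0.092). FUS3 (YBL016W), which encodes the MAP kinase, had 9.71 and 9.80 in the double deletion and 9.49 and 9.56 in the FHL1 deletion, against 9.35 and 9.23 in WT. Its deletion arrays also lay above WT, with the double deletion 0.46 higher (SE 0.14, adjusted p = 0.0545) and the FHL1 deletion 0.23 higher (SE 0.14, adjusted p = 0.265). Of the 3 probe sets of FUS3, the bright ones had the same sign in the double deletion and opposite signs in the FHL1 deletion. The second bright one gave 0.31 in the double deletion and -0.01 in the FHL1 deletion, and the third, with means of 2.69, 2.66 and 3.0 in the double deletion, the FHL1 deletion and WT, lay under the floor.

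FAR1 and STE12, which act at the end of the cascade, had lower means in both deletion genotypes and also did not pass. FAR1 (YJL157C), which encodes the inhibitor that arrests cells in G1, had 9.19 and 8.33 in the double deletion and 8.62 and 9.50 in the FHL1 deletion, against 9.80 and 9.37 in WT. The 2 arrays of a deletion genotype lay at least as far apart as its mean lay from that of WT, and FAR1 differed from WT by -0.83 (SE 0.37, adjusted p = 0.163) and -0.53 (SE 0.37, adjusted p = 0.339). STE12 (YHR084W), which encodes the transcription factor of the pathway, had 8.28 and 8.51 in the double deletion and 8.47 and 8.24 in the FHL1 deletion, against 8.56 and 8.91 in WT. The deletion arrays were below both WT arrays by a narrow margin, with differences of -0.34 (SE 0.18, adjusted p = 0.234) and -0.38 (SE 0.18, adjusted p = 0.167).

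FUS1 (YCL027W), which encodes a membrane protein needed for cell fusion, was too dim to be tested. It had 6.34 and 5.0 in the double deletion and 5.57 and 6.36 in the FHL1 deletion, against 6.26 and 6.17 in WT, and the second double deletion and the first FHL1 deletion array lay under the floor. In a fit with no filter on dim genes it differed from WT by -0.23 (adjusted p = 0.732) in the double deletion and by -0.22 (adjusted p = 0.726) in the FHL1 deletion.

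Of the 2 haploid-specific genes outside the signalling chain, HO passed the test and RME1 did not. HO (YDL227C) had 8.26 and 7.01 in the double deletion and 7.07 and 7.73 in the FHL1 deletion, against 9.32 and 8.97 in WT. All deletion arrays were below both WT arrays, but the deletion arrays of 1 genotype were spread more widely than those of WT. HO fell by 1.51 in the double deletion (SE 0.40, adjusted p = 0.0429) and by 1.74 in the FHL1 deletion (SE 0.40, adjusted p = 0.0255), the 23rd and 24th largest of 2101 and 2026 negative differences. Neither call held without either WT array (adjusted p = 0.0903 to 0.189) or with no filter on dim genes (adjusted p = 0.144 and 0.101), and without the second double deletion array the difference in that genotype was -0.88 (adjusted p = 0.119). Without the first FHL1 deletion array the difference in that genotype was -1.42 (adjusted p = 0.0522). RME1 (YGR044C) had 9.75 and 10.25 in the double deletion and 10.50 and 9.97 in the FHL1 deletion, against 10.10 and 10.23 in WT. Its groups overlapped, and its differences of -0.16 and 0.07 had intervals of -0.70 to 0.39 and -0.47 to 0.62.

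**Figure D2:**
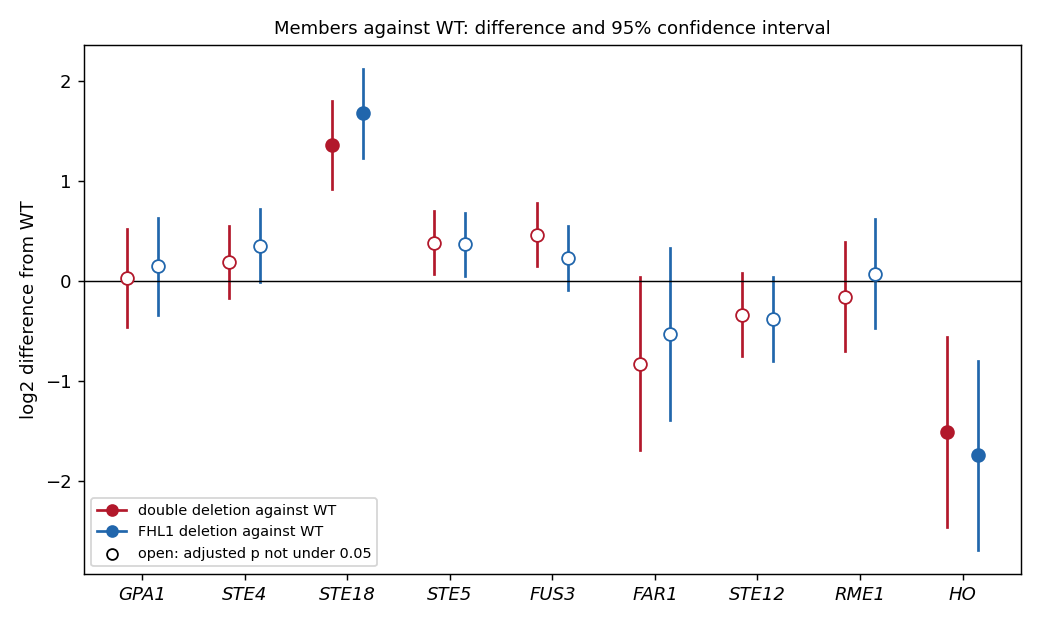
Log2 difference from WT of the 9 tested genes (points) with the 95% confidence interval of the model (lines), for the double deletion (red) and the FHL1 deletion (blue), each n = 2 arrays against 2. Filled points passed an adjusted p under 0.05: STE18 at 1.36 and 1.68, and HO at -1.51 and -1.74.

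Between the deletion genotypes none of the 9 tested members passed, and none had an unadjusted p under 0.05 in limma's test. Their differences, double deletion minus FHL1 deletion, ran from -0.32 for STE18 to 0.24 for HO, with intervals of -0.76 to 0.13 and -0.71 to 1.19. The background was also low, since 0.0236% of all tested genes, which is the single gene IFH1, passed in this comparison. The interval of HO leaves room for a difference of 1 on the log2 scale in the positive direction. That of FAR1, -1.16 to 0.56, does so in the negative direction. Similar levels in both genotypes are thus not shown for these genes, and the lack of a call does not show them for the other members.

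The sizes of the differences varied between array sets, while their directions were fixed by the separation of the arrays. STE18 differed from WT by 1.20 (set A) and 1.52 (set B) in the double deletion and by 1.69 and 1.67 in the FHL1 deletion. HO differed by -1.06 and -1.95 in the double deletion and by -1.59 and -1.89 in the FHL1 deletion, so the gap from WT was wider in the set whose deletion arrays carry MATa markers. With array set as a block 6 of 9 members passed in each comparison, against 37.2% of all tested genes in the double deletion and 41.7% in the FHL1 deletion. In both, STE5 (0.38 and 0.37, adjusted p = 0.0207 and 0.0221) passed upward, and FAR1 (adjusted p = 0.00534 and 0.022) and STE12 (adjusted p = 0.0342 and 0.0203) passed downward, besides STE18 and HO. FUS3 (adjusted p = 0.0167) passed in the double deletion and STE4 (adjusted p = 0.0477) in the FHL1 deletion. The sets were read from these same arrays, and those of set B shared at most 1 equal value with each other. The block also assumes the same set shift in every genotype, whereas set B carries MATa markers only in the deletions. The calls with this block are therefore a description only. Counted as plain separation of the arrays, 7 of 9 members did not overlap between double deletion and WT, where the share of all tested genes was 60.9%, and 6 of 9 between FHL1 deletion and WT, where it was 63.6%.

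FAR1 and HO were lower on the set B array of each deletion genotype than on its set A array. Array set B minus set A, which for the deletions is the array with MATa markers minus the one with MATalpha markers, gave FAR1 -0.86 in the double deletion and -0.89 in the FHL1 deletion, against -0.43 between the WT arrays. HO gave -1.25 and -0.65, against -0.35 in WT. FUS1 was under the floor on both arrays with MATa markers, so no difference is given for it. For comparison, the 5th and 95th percentiles over all tested genes were -0.45 and 0.50 in the double deletion and -0.45 and 0.52 in the FHL1 deletion, against -0.49 and 0.43 in WT. RME1 went the other way, at 0.50 and 0.53 against 0.13 in WT. STE4, STE18, STE5, FUS3, GPA1 and STE12 stayed between these percentiles in both deletions. No test was made, since the markers that separate these arrays were read from the same arrays.

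**Figure D3:**
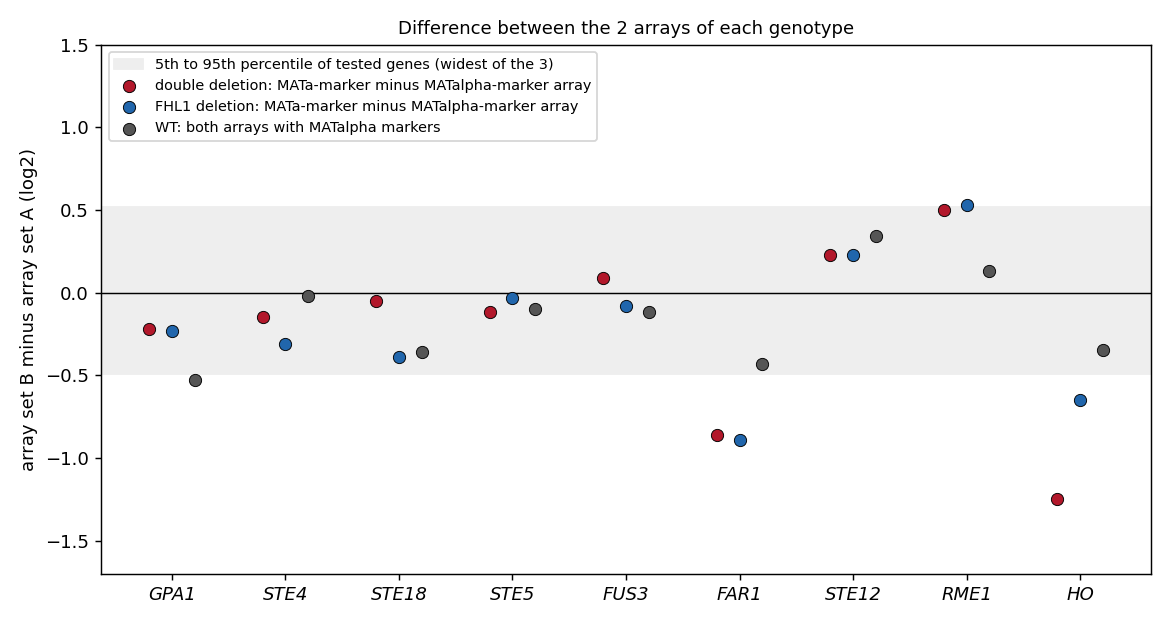
Difference between the 2 arrays of each genotype (array set B minus array set A, log2 scale) for the 9 tested genes; red is the double deletion, blue the FHL1 deletion and grey WT, and the shaded band runs from the lowest 5th to the highest 95th percentile of the 3 genotypes over 4242 tested genes. FAR1 and HO lie below the band in both deletions and inside it in WT.

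Other genes of the pathway were followed through lists ordered by role, 70 genes in all without members and mating type markers, of which 50 were tested. In the double deletion 8 rose and 1 fell around a median of 0.11, and in the FHL1 deletion 7 rose and 1 fell around a median of 0.07, beside medians of 0.01 and 0.02 over all tested genes. The background shares were 9.78% rising and 8.46% falling in the double deletion, and 12.9% rising and 8.42% falling in the FHL1 deletion, so the 7 rises among 50 in the FHL1 deletion are near the background. Most of the rises were in the list of pheromone-induced and mating genes, of which 13 of 20 listed were tested. In the double deletion 7 rose and in the FHL1 deletion 6, none falling, with medians of 0.68 and 0.60. Of all tested genes 9.78% and 12.9% rose. The list was chosen with earlier results of these data known, so its counts are a description and no test of the pathway.

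PRM10, a pheromone-regulated membrane protein gene, had 11.17 and 11.37 in the double deletion and 10.95 and 10.76 in the FHL1 deletion, against 9.51 and 9.84 in WT. It rose by 1.60 (SE 0.17, adjusted p = 0.00256) and 1.18 (SE 0.17, adjusted p = 0.00556). PRM5, a pheromone-regulated gene that also responds to cell wall stress, had 10.76 and 11.14 in the double deletion and 11.0 and 10.54 in the FHL1 deletion, against 9.79 and 9.63 in WT. The rises were 1.24 (SE 0.20, adjusted p = 0.0105) and 1.06 (SE 0.20, adjusted p = 0.0146). GIC2, which encodes an effector of the polarity GTPase Cdc42, had 11.21 and 11.36 in the double deletion and 11.24 and 11.19 in the FHL1 deletion, against 10.09 and 10.29 in WT. It rose by 1.09 (SE 0.14, adjusted p = 0.00463) and 1.02 (SE 0.14, adjusted p = 0.00493), and for all of these genes the 4 deletion arrays lay above both WT arrays.

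PRM8 rose by 0.80 and 0.88, and AFR1, whose product shapes the mating projection, rose by 0.72 in both genotypes. CHS1, a chitin synthase gene, and PRM4 passed in the double deletion (0.89, adjusted p = 0.0208, and 0.68, adjusted p = 0.0423), with 0.60 (adjusted p = 0.0553) and 0.40 (adjusted p = 0.158) in the FHL1 deletion. PRM9 rose in the FHL1 deletion (0.84, adjusted p = 0.0379), with 0.64 (adjusted p = 0.0899) in the double deletion, and none of the 3 differed between the deletion genotypes in the direct test (adjusted p of 0.982 or more). Without the second WT array only PRM10 and GIC2 of this list rose in either comparison, and without the first WT array 4 genes rose in the double deletion and 3 in the FHL1 deletion. Without the first or without the second double deletion array the count in that genotype was 3, and with no filter on dim genes it was 4, against 3 in the FHL1 deletion. AGA1, KAR3 and CIK1, which also respond to pheromone, differed from WT by -0.24 to 0.11 and did not pass. The mean of AGA1 joins arrays that went opposite ways. It differed from WT by 0.18 in set A and -0.67 in set B in the double deletion, and by 0.30 and -0.70 in the FHL1 deletion. KAR5 and PCL2 of the list did not pass either. In the double deletion and the FHL1 deletion, KAR5 differed by 0.49 and 0.59 (adjusted p = 0.116 and 0.0639) and PCL2 by 0.31 and 0.22. FUS2, FIG1, FIG2, PRM1, PRM2, PRM3 and PRM6 of the list were too dim to be tested, and their differences went both ways. FUS2 differed by 0.24 in the double deletion and 0.37 in the FHL1 deletion, and FIG2 by 0.43 and 0.36. PRM1 differed by -0.27 and -0.29, and PRM2 by -0.04 and 0.21. FIG1 and PRM3, partly under the floor, differed by -0.14 in both genotypes and by -0.12 and -0.14. PRM6 was under the floor on all 6 arrays.

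**Figure D4:**
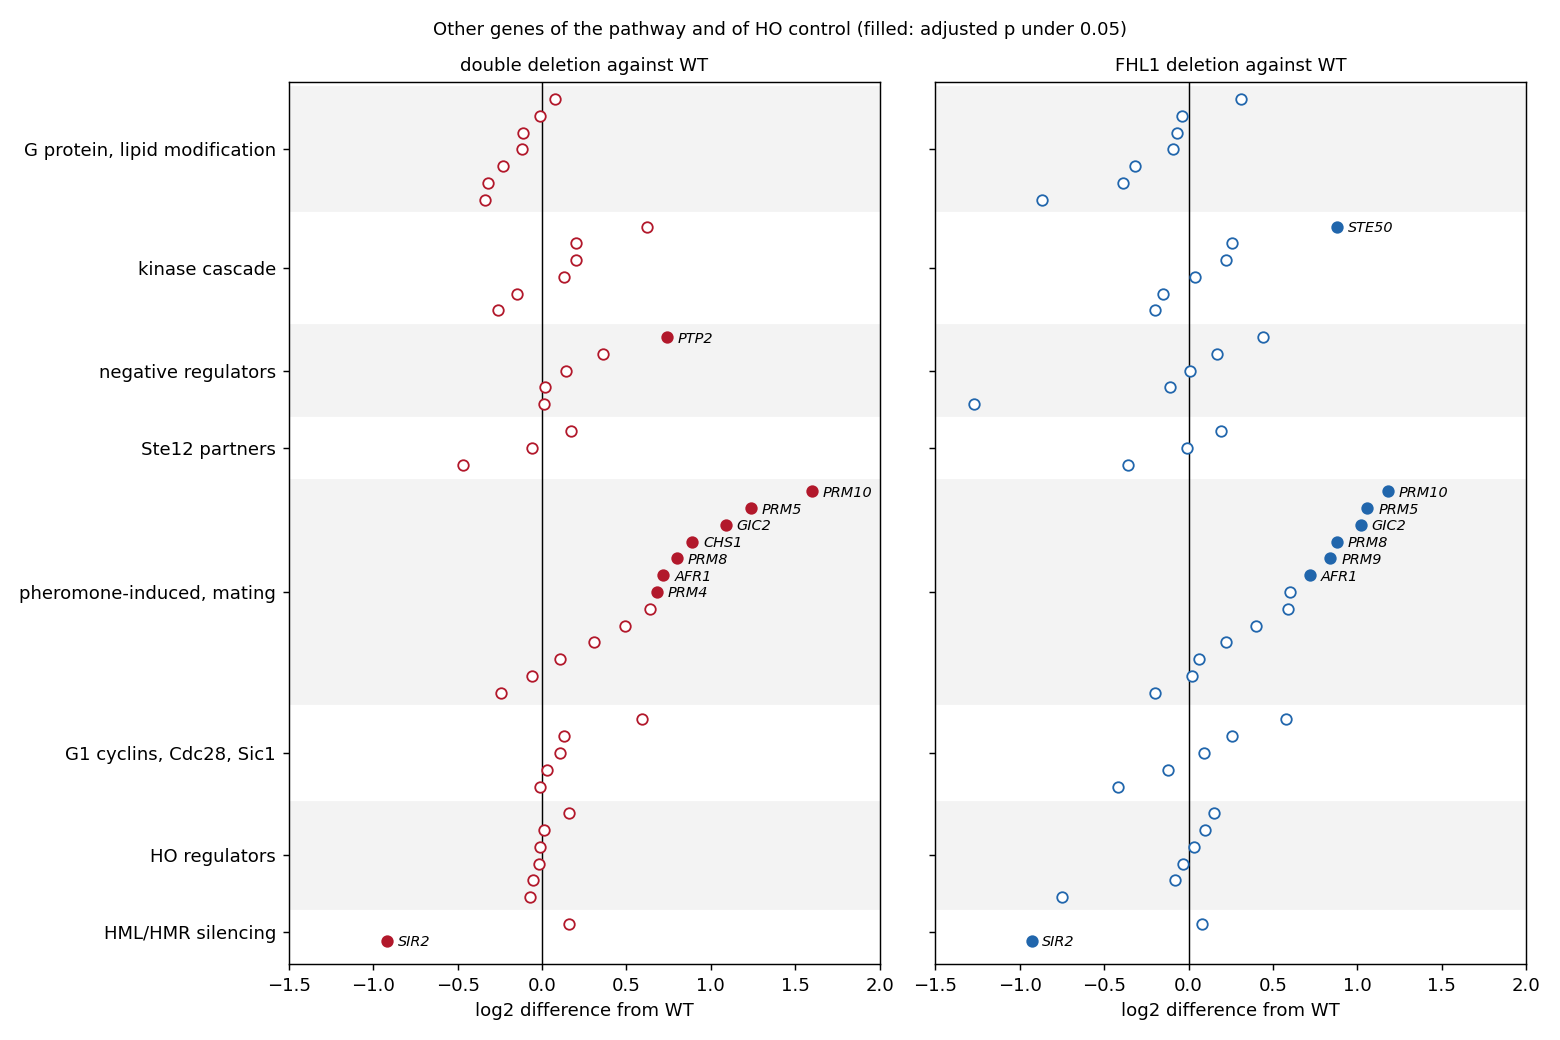
Log2 difference from WT (x axis) of each tested gene in 8 role lists (rows, sorted within a list), with the double deletion in the left panel and the FHL1 deletion in the right panel. Filled points passed an adjusted p under 0.05 and carry their names; 7 and 6 of them are pheromone-induced or mating genes, from 0.68 to 1.60 and from 0.72 to 1.18.

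The remaining lists held 3 called genes. STE50, the adaptor of the kinase Ste11, had 8.02 and 7.53 in the double deletion and 8.10 and 7.99 in the FHL1 deletion, against 7.34 and 6.98 in WT, and rose in the FHL1 deletion by 0.88 (SE 0.21, adjusted p = 0.0292), with 0.62 (adjusted p = 0.0888) in the double deletion. That call was lost when any 1 of the FHL1 deletion or WT arrays was left out (adjusted p = 0.0594 to 0.146) and with no filter on dim genes (adjusted p = 0.0816). PTP2, a phosphatase of MAP kinases, rose in the double deletion by 0.74 (SE 0.15, adjusted p = 0.021), with 0.44 (adjusted p = 0.0843) in the FHL1 deletion. It is measured by several probe sets, whose mean was too dim to be tested and differed by -0.13 in the FHL1 deletion. The call in the double deletion was lost without either WT array or the second double deletion array (adjusted p = 0.086 to 0.105). SIR2, which encodes the histone deacetylase that keeps the silent mating type cassettes off, had 7.93 and 8.09 in the double deletion and 7.94 and 8.06 in the FHL1 deletion, against 8.84 and 9.02 in WT. It fell by 0.92 (SE 0.15, adjusted p = 0.00959) and by 0.93 (SE 0.15, adjusted p = 0.0075), with no overlap, and SIR3 differed by 0.16 and 0.08. Without the second WT array SIR2 had adjusted p = 0.0671 and 0.0592.

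No gene of the lists for G protein regulation and lipid modification (7 tested), Ste12 partners (3 tested) or the G1 cyclins with CDC28 and SIC1 (5 tested) passed in limma's test, and 0, 1 and 1 of them had an unadjusted p under 0.05 in the double deletion, and 1, 0 and 2 in the FHL1 deletion. Of 8 HO regulators 6 were tested and none passed, with none under an unadjusted p of 0.05. SWI5 and ASH1, which activate and repress HO, differed from WT by -0.05 and 0.01 in the double deletion and by 0.15 and -0.03 in the FHL1 deletion. SIN3, a subunit gene of a histone deacetylase complex that represses HO, had the largest difference of the list, -0.75 in the FHL1 deletion (SE 0.36, adjusted p = 0.172), with 7.15 on the second FHL1 deletion array against 8.37 on the first. SWI4, which encodes the DNA-binding part of another activator of HO, was too dim to be tested. IME1, the meiosis regulator gene that Rme1 represses, was the 1 tested gene of 7 in the meiosis list and differed by -0.05 and -0.13. IME2, IME4, SPO11 and SPO13 lay under the floor on all 6 arrays. NDT80 and UME6 of that list were over the floor on all 6 arrays but too dim to be tested. NDT80 differed by 0.68 in the double deletion and 0.91 in the FHL1 deletion, and UME6 by -0.59 and -0.79. AXL1 and RDH54, further haploid-regulated genes, differed by 0.18 and 0.51 in the double deletion and by 0.09 and 0.44 in the FHL1 deletion without passing. NEJ1, the remaining gene of that list, was too dim to be tested and went the other way. It differed by -0.23 in both genotypes, with all deletion arrays below both WT arrays. On the second FHL1 deletion array MSG5, a phosphatase gene for Fus3, had 3.24, against 8.45 to 8.84 on the other 5 arrays, and its difference of -1.27 in that genotype had an SE of 0.82.

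The genes beside STE18 and HO were read from the annotation's gene order. TMH11 (YJR085C), next to STE18, had 12.37 and 12.42 in the double deletion and 12.57 and 12.78 in the FHL1 deletion, against 11.90 and 11.77 in WT, and rose by 0.56 (SE 0.12, adjusted p = 0.0237) and 0.84 (SE 0.12, adjusted p = 0.00556). The call in the double deletion was lost when any 1 of the double deletion or WT arrays was left out (adjusted p = 0.068 to 0.117), with no filter on dim genes (adjusted p = 0.0524) and with the experiment number as a block (adjusted p = 0.0606). EMC2 on the other side differed by 0.02 (adjusted p = 0.961) and 0.19 (adjusted p = 0.497). Of the neighbours of HO, GCS1 differed by -0.24 (adjusted p = 0.274) and -0.26 (adjusted p = 0.218), and SSB1 had no probe set that names it alone.

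Among all tested genes the profiles nearest to that of STE18 over the 6 arrays, by root mean square difference after subtraction of each gene's WT mean, were those of IAT4, MSC1 and YMR196W, each at 0.14, where the median gene was at 1.25. Their differences from WT were 1.26 to 1.28 in the double deletion and 1.46 to 1.59 in the FHL1 deletion. Nearest to HO were RPR1, the RNA of ribonuclease P, at 0.26, the efflux transporter gene ATR1 at 0.28 and the vacuolar aminopeptidase gene APE1 at 0.32, where the median gene was at 1.42. No other member was among the 3 nearest to either.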

How the data were processed

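The authors deposited 1 table of log2 expression values per probe set and array (9335 probe sets, 6 arrays). The log2 unit was read from the range of the deposited values, and the sources used here do not give summarization or normalization. Gene names came from the platform annotation, updated through gene identifiers to RefSeq's assembly R64, which also gave gene order. 6504 probe sets named 1 gene, and for genes with several the brightest was used. Each array's median over these was set to the mean of the medians, the floor was set at the 10th percentile (5.63), and the dimmest 25% of genes by mean were dropped, leaving 4242. limma 3.58.1 under R 4.3.3 (lmFit, eBayes with trend, 3 residual degrees of freedom, all 6 arrays) compared the genotypes, with Benjamini-Hochberg adjustment over all tested genes. The model was tested on simulated data. Members, lists, tests and the rule for named genes (members, deleted genes, neighbours and nearest profiles of called members, called list genes) were chosen with earlier results of these data known. Genes named outside that rule were chosen after their values were seen. Alternatives covered scaling, floor, filter, probe sets, blocks, spread model and left-out arrays. Those for list genes were chosen after seeing the data.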

Additional observations from a re-analysis of the deposited data

How the results depend on the processing

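Against WT, 2 members passed in each comparison. The experiment number in the labels was used as a replicate block: 1 member, STE18, then passed in the double deletion, where HO had adjusted p = 0.0711, and 2 passed in the FHL1 deletion. Arrays with the same number deviated together at r = 0.42 between the double deletion and WT. For FHL1 deletion with WT and double deletion with FHL1 deletion, r was -0.38 and -0.63. The number thus did not go with a shared deviation in all 3 pairs, and what it stands for was not tested. For arrays of the same set r was 0.42, 0.38 and 0.63 in that order. With 2 arrays per genotype, the deviations from the genotype's mean are equal and opposite. These r values therefore repeat those of the numbers apart from sign, and they do not show that the sets are real. Array set as a block, which crosses the numbers of the FHL1 deletion with those of the other genotypes, gave 6 members in each comparison. In the FHL1 deletion 1 member, STE18, passed with no filter on dim genes and 1 with the dimmest 50% of genes left out, where HO was not tested. In the double deletion 2 passed under each of these settings, STE18 and FUS3 (adjusted p = 0.0488 and 0.0484). With the deposited scaling 3 passed in each comparison. Besides STE18 and HO these were FUS3 in the double deletion (adjusted p = 0.0348) and STE5 in the FHL1 deletion (adjusted p = 0.0433). With each array left out in turn, 0 to 2 members passed in the double deletion and 1 to 2 in the FHL1 deletion. Over the 4 arrays with MATalpha markers each deletion genotype has 1 array and all spread comes from the WT pair, so the calls of that fit are not used. Between the deletions 0 members passed under every one of the 19 alternatives. No member reversed a call under any alternative. Over all tested genes 774 passed in the double deletion and 903 in the FHL1 deletion, against 461 and 742 with no filter, 315 and 505 with the experiment number as a replicate block, 1577 and 1767 with array set as a block, and as few as 133 and 243 with the second WT array left out. Of the mating genes 7 rose in the double deletion, with 4 when dim genes were kept, when 50% were left out and under the replicate block, and 2 to 8 with an array left out; in the FHL1 deletion 6 rose, with 3 when dim genes were kept or 50% were left out, and 2 to 6 with an array left out. FUS1, under the floor on 2 arrays, is the member whose level signal over background limits most.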

Other observations

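Among the arrays with MATalpha markers, 2 of the 4 MATalpha marker genes, MF(ALPHA)2 and SAG1, were lower in the deletion genotypes than on both WT arrays. MF(ALPHA)2, the minor alpha-factor gene, had 9.05 on the double deletion array and 9.84 on the FHL1 deletion array, against 12.10 and 11.58 on the WT arrays. MF(ALPHA)1, the major alpha-factor gene, had 12.84 and 13.00 on those deletion arrays, against 12.87 and 12.09 in WT, a smaller gap than that between the WT arrays. STE3, the a-factor receptor gene, had 10.54 and 10.63, against 10.75 and 10.05, and SAG1, the alpha-agglutinin gene, had 10.05 and 10.19, against 10.83 and 10.70. Each deletion genotype gives 1 such array, so no test was made.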
